A study of Mus musculus with 8 samples.

Results

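Heparan sulfate is built by a small set of Golgi enzymes and displayed on a small set of core proteins, and 10 genes of this pathway were followed here in Zfp281 mutant mouse embryonic stem cells (ESCs): the sulfotransferases Hs6st2, Hs6st1, Hs2st1 and Ndst1, the polymerase subunits Ext1 and Ext2, the epimerase Glce, and the core proteins Gpc3, Gpc4 and Sdc4. Hs6st2 was picked because it lies among the most reduced genes of null ESCs, and the remaining genes were added to complete the pathway. Of the 10 genes, 9 had a probe set, out of 18193 genes measured in all; no probe set carried the symbol Ndst1 in the annotation table used, and Ndst1 was not analysed here. Total RNA of 8 ESC lines was read on Affymetrix mouse genome 430 2.0 arrays, with a single array a line: 3 lines were null for Zfp281 (7, 3.34 and 3.38), 2 were heterozygous (het, 5 and 3.1) and 3 were wild-type (3, 3.2 and 3.3). In the mutant allele both Zfp281 exons were replaced by a floxed neomycin cassette, so that the protein-coding part is gone. The paper shows null alleles with and without this cassette, and the sample labels do not say which each line carries. All lines were kept undifferentiated with LIF and serum on a layer of mouse embryonic fibroblasts, with no further treatment. Each line is a single ESC line, and differences between lines and between hybridizations therefore enter the same spread.

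Heparan sulfate is a linear sugar chain attached to a serine of a core protein through a short linker. Ext1 and Ext2 together extend the chain, enzymes of the Ndst family replace acetyl groups by sulfate, Glce converts glucuronic acid into iduronic acid, Hs2st1 adds sulfate to the second carbon of the uronic acid, and Hs6st1 and Hs6st2 add it to the sixth carbon of glucosamine. Glypicans such as Gpc3 and Gpc4 hold the chains on the outer membrane by a lipid anchor, whereas syndecans such as Sdc4 span the membrane. The sulfate pattern sets how FGFs, BMPs and Wnts bind the cell surface, and mouse ESCs that lack Ext1 make no heparan sulfate and are impaired in leaving the undifferentiated state.

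Promoter sequence was taken from RefSeq (build GRCm38.p6) for 8 of the 9 measured genes. Hs6st2, the gene that differed most, has a pair of annotated starts on the minus strand of chromosome X, and Hs2st1, the other enzyme whose null lines were all below the rest, has 1 on the minus strand of chromosome 3. The 250 bases before each of these starts are shown from 5′ to 3′, at chrX:51681603-51681852 and chrX:51680478-51680727 for Hs6st2 and chr3:144570217-144570466 for Hs2st1. Capitals mark GGGGAGGGG, a G-rich element of the kind that zinc finger proteins related to human ZNF281 bind.
Hs6st2, start 1: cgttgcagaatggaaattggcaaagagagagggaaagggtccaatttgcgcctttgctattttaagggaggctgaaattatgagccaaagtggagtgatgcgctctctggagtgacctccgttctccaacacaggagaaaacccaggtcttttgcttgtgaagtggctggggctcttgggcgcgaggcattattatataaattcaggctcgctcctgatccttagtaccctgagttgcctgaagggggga
Hs6st2, start 2: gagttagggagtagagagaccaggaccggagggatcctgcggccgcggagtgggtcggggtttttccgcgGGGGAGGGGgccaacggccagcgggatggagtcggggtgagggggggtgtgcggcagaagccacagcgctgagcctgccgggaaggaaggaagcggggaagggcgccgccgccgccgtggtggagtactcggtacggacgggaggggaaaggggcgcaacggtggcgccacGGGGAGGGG
Hs2st1: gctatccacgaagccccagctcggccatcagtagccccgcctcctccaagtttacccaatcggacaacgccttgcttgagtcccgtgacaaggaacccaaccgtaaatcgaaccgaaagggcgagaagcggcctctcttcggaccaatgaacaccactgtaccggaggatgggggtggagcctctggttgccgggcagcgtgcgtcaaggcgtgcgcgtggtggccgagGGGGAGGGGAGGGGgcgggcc
The element was searched on both strands (GGGGAGGGG or CCCCTCCCC) in windows of 300 bases, 250 before to 50 after each start, and it was chosen with these sequences in view. It occurred 2 times before start 2 of Hs6st2 and 0 times before start 1. The Hs2st1 window held 2 matches that overlap each other, and the Hs6st1 window held 1. The windows of Ext2, Glce, Gpc3, Gpc4 and Sdc4 held 0. Of all 27025 genes with a promoter entry, 7.20% had at least 1 match. A match is a stretch of letters and was not tested for binding.

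Values are log2 RMA values, that is, array brightness after background correction and normalization across arrays, so that a difference of 1 is a 2-fold one. A probe set is called present in a line where its signal passed the detection test of the array software. Zfp281 read lower in all null lines than in the other lines on both of its probe sets, each of which was called present in 2 of the 3 null lines. Probe set 1452045_at read 3.39, 2.96 and 2.94 (log2) in null lines 7, 3.34 and 3.38, 6.74 and 6.74 in het lines 5 and 3.1, and 7.19, 8.36 and 7.58 in wild-type lines 3, 3.2 and 3.3. Probe set 1426377_at read 3.64, 5.06 and 5.23 in null, 6.69 and 6.97 in het, and 6.88, 7.93 and 6.72 in wild-type lines, so that heterozygous and wild-type lines overlapped there, and it differed by -2.54 between null and wild-type lines. Stem cell markers were called present in every line (9 of 10 on the list), and their summed linear level was 18086 to 20029 in null, 11453 to 11997 in het and 9123 to 11911 in wild-type lines. Of 19 fibroblast markers, 13 to 16 were called present in null, 15 to 18 in het and 12 to 18 in wild-type lines, with summed levels of 3429 to 4169 in null, 4975 to 5039 in het and 3849 to 6269 in wild-type lines. Among them Pdgfrb was called present in no line. In such samples fewer cells of a type and less RNA per cell cannot be told apart. Of 14 endoderm markers, 8 to 10 were called present in null, 6 to 10 in het and 9 to 10 in wild-type lines, with summed levels of 1309 to 1791 in null, 1272 to 2032 in het and 1833 to 4110 in wild-type lines. Foxa2, Afp and Amn were called present in no line. On average 11 of the 14 read lower in null than in wild-type lines (median -0.38), whereas Cubn, called present in 1 null line, differed by 1.06 (adjusted p = 0.205, limma). The part of these markers in the results was not tested. Of the stem cell and endoderm markers, limma called Dppa5a higher (1.23) and the laminin gene Lamb1 lower (-1.25) in null than in wild-type lines (a call is an adjusted p below 0.05 over all genes). Calls depended on single lines: 206 of all genes passed an adjusted p of 0.05 between null and wild-type lines, and 3, 2 and 4 passed when null line 7, wild-type line 3 or wild-type line 3.2 was left out. The mean log2 difference between 3′ and 5′ control probe sets, a measure of how far labelling reached along a transcript, was 2.68 to 3.71 in null, 4.49 to 4.80 in het and 4.23 to 4.86 in wild-type lines. The Y-linked gene Eif2s3y was called present in het line 3.1 and wild-type lines 3 and 3.2, and absent in the other 5 lines.

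Hs6st2 was the member that stood apart. It was lower in every null line than in every heterozygous or wild-type line, it was intermediate in heterozygous lines, and it was called present in all 8. In null lines 7, 3.34 and 3.38 it read 4.42, 4.95 and 4.46 on the log2 scale. Het lines 5 and 3.1 read 5.90 and 5.86. Wild-type lines 3, 3.2 and 3.3 read 6.87, 6.02 and 6.05. The null lines sat together at the bottom with a gap above them, the heterozygous lines were nearly equal, and wild-type line 3 was clearly above the other wild-type lines. The means were 4.61 ± 0.30 in null (SD, n = 3), 5.88 ± 0.03 in het (n = 2) and 6.31 ± 0.48 in wild-type lines (n = 3). The difference was -1.71 (SE 0.24) between null and wild-type lines, a 3.26-fold lower level, and -1.28 (SE 0.27) between null and heterozygous lines. Hs6st2 was chosen for being low in null lines, so these values are a description, with no test. In the order of this difference, from the most reduced up, it was number 20 of the 7306 genes called present in every line of a genotype (detected genes). The genes just before it were Plac8 and Jade2, each at -1.76, and those just after it were Dyrk2 at -1.69 and Mpzl2 at -1.69.

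**Figure D1:**
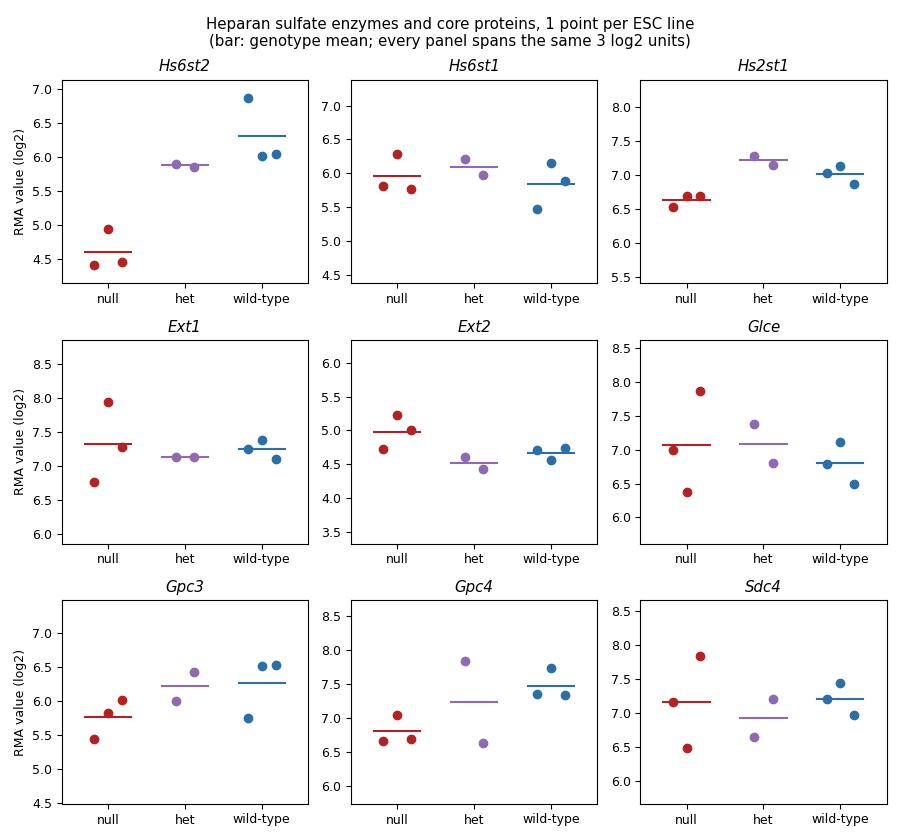
Log2 RMA value of each measured member (y axis) in the null, heterozygous (het) and wild-type lines (x axis), with 1 point per ESC line and a bar at the genotype mean. In Hs6st2 (4.42 to 4.95) and in Hs2st1 (6.52 to 6.69) the 3 null lines lie below every other line; in Glce and Sdc4 the null lines span the widest range.

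The comparison of heterozygous with wild-type lines shares its wild-type lines with the contrast that chose Hs6st2, and is not independent of that choice. Both heterozygous lines were below all wild-type lines, but the gap to wild-type lines 3.2 and 3.3 was small. The difference was -0.43 (SE 0.27), with an interval at 95% confidence of -1.05 to 0.19, and it did not pass the threshold (adjusted p = 0.997, limma). Without wild-type line 3 it was -0.15. The linear signal values that were also deposited gave another order for heterozygous lines. There Hs6st2 read 17.7, 39.3 and 17.9 in null lines 7, 3.34 and 3.38, 82.3 and 130.0 in het lines 5 and 3.1, and 140.1, 63.2 and 69.2 in wild-type lines 3, 3.2 and 3.3. On that scale both heterozygous lines were above a pair of the wild-type lines, while the null lines were again below every other line.

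The Hs6st2 result rested on 1 of 4 probe sets. Probe set 1450047_at gave all the values above. The probe sets 1420938_at, 1420939_at and 1446257_at were called present in 0 of 8 lines, with null minus wild-type differences of 0.12, -0.19 and -0.04. These 3 probe sets were below detection, and averaging them in brought the difference to -0.45. Null line 7 and wild-type line 3 came from the same litter, as did null line 3.38 and wild-type line 3.3. Hs6st2 differed by -2.45 within the first litter and by -1.60 within the second. With the 3′ to 5′ difference, which was smaller in every null line, as a covariate, the null minus wild-type value was -1.08. The part of that difference in the result was not tested. Among the lines in which Eif2s3y was not called present, which hold a single wild-type line (3.3), the value was -1.45.

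**Figure D2:**
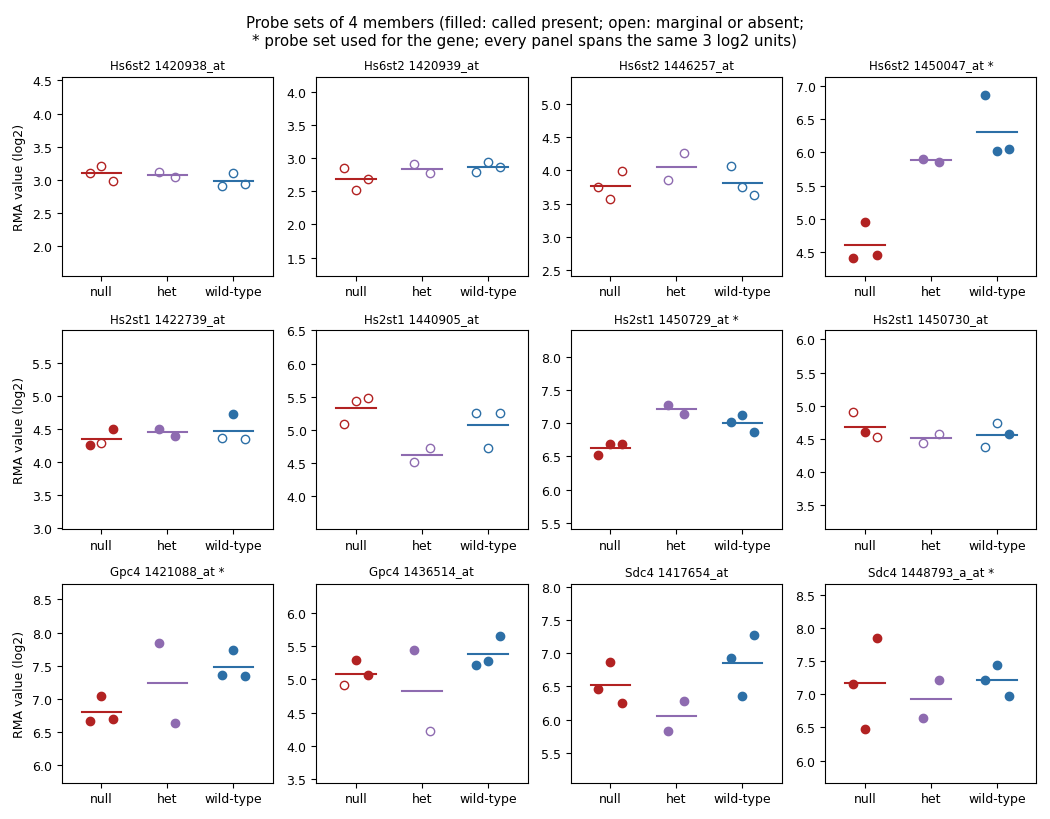
Log2 RMA value (y axis) of every probe set of Hs6st2, Hs2st1, Gpc4 and Sdc4 in null, het and wild-type lines (x axis); filled points were called present, open points marginal or absent, bars are genotype means, and an asterisk marks the probe set used for the gene. Only 1450047_at of the 4 Hs6st2 probe sets was called present, and the 2 Sdc4 probe sets put the lines in different orders.

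Hs6st1, which catalyses the same reaction as Hs6st2, did not share its pattern. It read 5.82, 6.29 and 5.76 in null lines 7, 3.34 and 3.38, 6.21 and 5.98 in het lines 5 and 3.1, and 5.47, 6.15 and 5.89 in wild-type lines 3, 3.2 and 3.3. The genotypes overlapped fully. The null minus wild-type difference was 0.12 (SE 0.20), with an interval at 95% confidence of -0.35 to 0.58 (adjusted p = 0.866, limma). Hs6st3, the third gene of this sulfotransferase family, was called present in 0 lines.

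Hs2st1 was the other sulfotransferase with ordered genotypes. Null lines 7, 3.34 and 3.38 read 6.52, 6.69 and 6.69, het lines 5 and 3.1 read 7.28 and 7.14, and wild-type lines 3, 3.2 and 3.3 read 7.02, 7.13 and 6.87. All null lines were below all wild-type lines, and both heterozygous lines were above them, an arrangement (or its mirror image) found in 0.94% of all genes and 1.51% of detected genes. The null minus wild-type difference was -0.38 (SE 0.11), which is 1.30-fold lower (unadjusted p = 0.00905, adjusted p = 0.137, limma). The null minus heterozygous difference was -0.58 (SE 0.12), with an adjusted p of 0.0871 in limma, and the heterozygous minus wild-type difference was 0.21 (SE 0.12, adjusted p = 0.997). None of these passed the threshold of 0.05. The other Hs2st1 probe sets read dim. Probe set 1422739_at was called present in 5 lines and differed by -0.12 between null and wild-type lines. On 1450730_at, present in 2 lines, that difference was 0.12 and the null minus heterozygous one 0.17. On 1440905_at, present in 0 lines, the null minus wild-type difference was 0.26 and the null minus heterozygous one 0.71. The mean of all 4 Hs2st1 probe sets differed by -0.03.

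No difference in the chain polymerase or the epimerase passed the threshold. Ext1, the subunit that carries the polymerizing activity, read 6.76, 7.95 and 7.27 in null lines 7, 3.34 and 3.38, 7.14 and 7.13 in het lines 5 and 3.1, and 7.24, 7.39 and 7.11 in wild-type lines 3, 3.2 and 3.3. Null line 7 was the lowest of all lines and null line 3.34 the highest, so that the null mean of 7.33 ± 0.59 (SD, n = 3) was close to the wild-type mean of 7.25 ± 0.14 (n = 3). The difference was 0.08 (SE 0.26, adjusted p = 0.936, limma). Its partner Ext2 was dim, and its probe set was called present only in null lines 3.34 and 3.38 and wild-type line 3.3. It read 4.72, 5.23 and 5.00 in null, 4.61 and 4.44 in het, and 4.71, 4.56 and 4.74 in wild-type lines, in the same line order. Null exceeded heterozygous lines by 0.46 (SE 0.16, unadjusted p = 0.0197, adjusted p = 0.239, limma), a 1.38-fold difference in the values read. Ext2 was called present in 0 het lines and was not called present in null line 7, so the size of this difference is uncertain. Glce read 6.99, 6.37 and 7.86 in null, 7.37 and 6.80 in het, and 6.79, 7.12 and 6.49 in wild-type lines. The null lines held both the highest and the lowest Glce value, and the null minus wild-type difference was 0.28 (SE 0.35, adjusted p = 0.805, limma).

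On the probe sets used, all 3 core proteins read lower on average in null than in wild-type lines. Only in Gpc4 did the lines of these genotypes not overlap. Gpc4 read 6.67, 7.05 and 6.69 in null lines 7, 3.34 and 3.38, 7.84 and 6.63 in het lines 5 and 3.1, and 7.35, 7.73 and 7.34 in wild-type lines 3, 3.2 and 3.3. Every null line was below every wild-type line, but het line 3.1 was as low as the null lines and het line 5 was the highest of all. The null minus wild-type difference was -0.67 (SE 0.28), which is 1.59-fold lower (unadjusted p = 0.0443, adjusted p = 0.290, limma). The second Gpc4 probe set, 1436514_at, called present in 6 lines, differed by -0.30, and het line 3.1 was again lowest. There null and wild-type lines overlapped: null line 3.34 (5.29) was above wild-type lines 3 (5.22) and 3.2 (5.27). Gpc3, an X-linked glypican mutated in a human overgrowth syndrome, read 5.45, 5.82 and 6.02 in null, 6.01 and 6.43 in het, and 5.76, 6.52 and 6.54 in wild-type lines. Wild-type line 3 fell among the null lines, and the difference was -0.51 (SE 0.24, adjusted p = 0.364, limma). Without wild-type line 3 the Gpc3 difference was -0.76. Sdc4 read 7.16, 6.48 and 7.85 in null, 6.65 and 7.21 in het, and 7.21, 7.45 and 6.98 in wild-type lines. Its null lines spanned all other lines, and the difference was -0.05 (SE 0.32, adjusted p = 0.972, limma). The second Sdc4 probe set, 1417654_at, also present in all 8 lines, read 6.46, 6.87 and 6.25 in null, 5.82 and 6.28 in het, and 6.93, 6.35 and 7.27 in wild-type lines, a null minus wild-type difference of -0.33. On 1417654_at both heterozygous lines were below all wild-type lines, with a difference of -0.80 (SE 0.29, adjusted p = 0.989, limma). The 2 probe sets disagree on the order of the null lines, with 3.34 lowest in one and highest in the other.

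**Figure D3:**
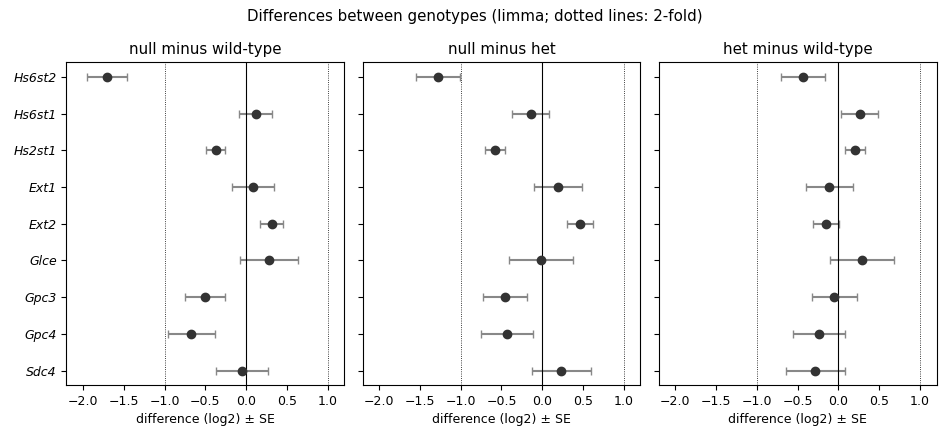
Difference between genotypes in log2 units (x axis; points are limma estimates, bars their standard errors) for each measured member (y axis), for null minus wild-type, null minus het, and het minus wild-type lines. Hs6st2 lies at -1.71 and -1.28 in the first 2 panels, past the dotted 2-fold line, and every other member lies between -0.67 and 0.46 in all 3.

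Hs6st2 was selected on null against wild-type lines, and nothing is read from it in that contrast. Of the other 8 measured members, 7 of them detected, 2 had null lines that did not overlap the wild-type lines, both lower (Hs2st1 and Gpc4). Among all genes 22.4% did not overlap in either direction and 11.2% were lower, and among detected genes 33.6% and 15.8%. Of these 8 members 0 passed an adjusted p of 0.05 in limma, where 1.13% of all and 2.55% of detected genes did, and 2 (Hs2st1 and Gpc4) had an unadjusted p under 0.05, where 16.4% of all and 31.7% of detected genes did. The median difference of these 8 members was 0.02, against -0.01 over all 18193 genes. Between null and heterozygous lines 0 of the 8 passed, 2 (Hs2st1 and Ext2) had an unadjusted p under 0.05, and the share of all genes past the adjusted threshold was 0.0%, with 13.8% of all and 27.0% of detected genes at an unadjusted p under 0.05. The null lines enter both of these comparisons. Null and heterozygous lines did not overlap for 2 of the 8 (Hs2st1 lower, Ext2 higher), against 27.9% of all and 39.7% of detected genes. On the probe sets used, 0 of all 9 members passed at either threshold between heterozygous and wild-type lines. Of all genes 0.0% passed the adjusted one, and 3.85% of all and 5.5% of detected genes passed the unadjusted one. Lines of these genotypes did not overlap for 1 of the 8 (Hs2st1, higher) and for Hs6st2 (lower), against 17.3% of all and 16.7% of detected genes. Of the 8 members other than Hs6st2, 0 were past 2-fold in any comparison. Over all genes 2.47% were past 2-fold in null against wild-type and 2.42% in null against heterozygous lines. Hs6st2 was past 2-fold in both of these, but it was chosen for being low in null lines, so nothing is read from that.

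Hs6st2, Gpc4 and Gpc3 lie close together on chromosome X, and the genes around them were read as well. In the RefSeq order the genes run Rap2c, Mbnl3, Hs6st2, Usp26, 1700080O16Rik, Gpc4, Gpc3, Ccdc160, Phf6 and Hprt. Rap2c, a small GTPase of the Ras family, read 6.35, 6.36 and 6.69 in null lines 7, 3.34 and 3.38, 7.16 and 6.83 in het lines 5 and 3.1, and 7.14, 7.66 and 7.67 in wild-type lines 3, 3.2 and 3.3. It was lower in null than in wild-type lines, with a difference of -1.02 (SE 0.18, adjusted p = 0.0467, limma), and all null lines were below all other lines. With each line left out in turn the Rap2c difference stayed between -1.20 and -0.93 and the adjusted p lay between 0.0503 and 0.188, so that the call was lost each time. Mbnl3, an RNA-binding splicing regulator of the muscleblind family, read 4.73, 5.09 and 4.79 in null, 5.80 and 5.47 in het, and 6.88, 6.05 and 5.50 in wild-type lines. Its null lines were likewise the lowest, and the null minus wild-type difference was -1.27 (SE 0.31, adjusted p = 0.0858, limma). Over the settings run the Mbnl3 difference ranged from -1.59 to -0.48, and it was -0.48 both with the mean of its probe sets and with the 3′ to 5′ covariate and -0.63 in lines without Eif2s3y detection. On the probe sets used, the 3 genes in a row Rap2c, Mbnl3 and Hs6st2 had all null lines below all others. Hs6st2 is among them because it was chosen for being low in null lines. Null lines lay below the wild-type lines in 11.2% of all and 15.8% of detected genes, and whether neighbours moved together was not tested. On the Gpc3 side the order did not continue: Ccdc160, Phf6 and Hprt differed by 0.39, -0.17 and 0.42, and each overlapped between genotypes. Usp26 and 1700080O16Rik were called present in 0 lines.

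**Figure D4:**
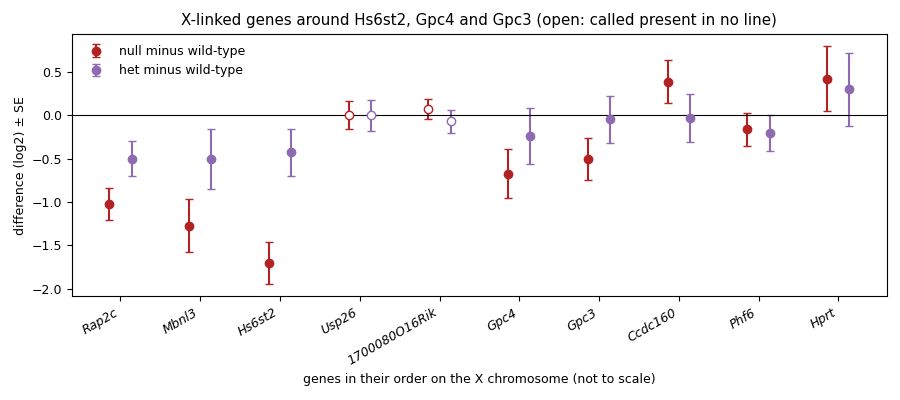
Difference in log2 units (y axis; points are limma estimates, bars their standard errors) for genes around Hs6st2, Gpc4 and Gpc3 in their order on the X chromosome (x axis, not to scale), for null minus wild-type and het minus wild-type lines; open points were called present in no line. The null differences run from -1.02 at Rap2c to -1.71 at Hs6st2, stand at -0.67 and -0.51 for the glypicans, and are 0.39, -0.17 and 0.42 for the 3 genes beyond Gpc3.

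X-linked genes were also read as a set. Over 282 X-linked genes called present in every line of a genotype, the median null minus wild-type difference was -0.07, against -0.02 over all 7306 such genes, and limma called 7 of them (2.48%) lower and 2 (0.709%) higher, where it called 0.999% of all detected genes lower and 1.55% higher. Hs6st2 is among the 7 called lower, and it was chosen for being low in null lines. With the median X-linked difference of -0.07 subtracted, Hs6st2, Gpc4 and Gpc3 differed by -1.64, -0.61 and -0.44. The median level of the 282 genes varied between lines. It was 6.55, 6.24 and 6.84 in null lines 7, 3.34 and 3.38, and 6.92 and 6.27 in het lines 5 and 3.1. In wild-type lines 3, 3.2 and 3.3 it was 6.57, 6.52 and 7.09. The null mean of these line medians differed from the wild-type mean by -0.18. Xist, the RNA that coats the inactive X, read 7.90, 7.45 and 8.94 in null lines 7, 3.34 and 3.38, 9.15 and 8.09 in het lines 5 and 3.1, and 8.18, 7.99 and 9.83 in wild-type lines 3, 3.2 and 3.3. Xist was highest in wild-type line 3.3, het line 5 and null line 3.38, and lowest in null line 3.34. The part of Xist or of the X-linked level in the Hs6st2 values was not tested.

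Outside the 10 members, 46 further heparan sulfate genes were listed, of which 44 were measured and 17 were called present in every line of a genotype. In limma 0 of the 44 passed an adjusted p of 0.05 in any of the 3 comparisons. That threshold was passed by 1.13% of all genes for null against wild-type lines and by 0.0% in the other comparisons. For null against wild-type lines 8 had an unadjusted p under 0.05, where 16.4% of all and 31.7% of detected genes did. For null against heterozygous lines 4 did, against 13.8% and 27.0%. For heterozygous against wild-type lines 1 did, against 3.85% and 5.5%. The median null minus wild-type difference of the 44 was -0.06, with 26 lower and 18 higher, against 9672 lower and 8521 higher of all 18193 genes. Sulf1, an extracellular sulfatase that removes the sulfate groups which the Hs6st enzymes add, had the largest difference. It read 4.63, 5.21 and 5.32 in null lines 7, 3.34 and 3.38, 6.05 and 4.99 in het lines 5 and 3.1, and 5.87, 6.37 and 6.56 in wild-type lines 3, 3.2 and 3.3. All null lines were below all wild-type lines, het line 3.1 lay among the null lines, and the difference was -1.22 (SE 0.31, adjusted p = 0.0942, limma). Sulf1 was called present in 0 of 3 null lines and in every heterozygous and wild-type line. Het line 3.1, where it was called present, read lower than null lines 3.34 and 3.38, where it was not. The measured Sulf1 difference was 2.33-fold, and its size is uncertain. Sulf2, a relative of Sulf1 called present in all 8 lines, differed by -0.26 (adjusted p = 0.580, limma).

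In the remaining lists the detected genes that differed most were as follows. In the linker list, Fam20b, the kinase of the linker xylose, differed by 0.08 and B4galt7 by -0.19, and 8 genes had a median of 0.07. In the list of other sulfotransferases 1 of 10 genes was called present in a whole genotype, Hs3st1, at -0.38 (adjusted p = 0.113, limma) with all null lines below the wild-type lines. Hs3st1 was dim and was called present in 3 null, 0 het and 1 wild-type line, so that its detection ran opposite to its level. In precursor supply, Papss1, which makes the activated sulfate donor, differed by -0.53, Bpnt2, which clears its by-product, by -0.49, and Ugdh, which makes UDP-glucuronic acid, by -0.46. All 3 had null lines below the wild-type lines, as had 11.2% of all and 15.8% of detected genes. The adjusted p of these 3 ranged from 0.121 to 0.371 in limma, and the 10 genes of the list had a median of -0.11. Among other core proteins, Agrn differed by -0.91, Sdc2 by -0.49 and Sdc1 by -0.38, with adjusted p from 0.197 to 0.478 in limma. The 12 genes of that list had a median of -0.08. They include Notum, a secreted enzyme and not a core protein, at 0.40 (adjusted p = 0.0894, limma). Of the fibroblast markers 16 of the 19 measured read lower on average in null than in wild-type lines (median difference -0.46). In limma 0 of them passed the adjusted threshold. An unadjusted p under 0.05 was found for 4, where 16.4% of all and 31.7% of detected genes had one. The part of these markers in the results was not tested.

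**Figure D5:**
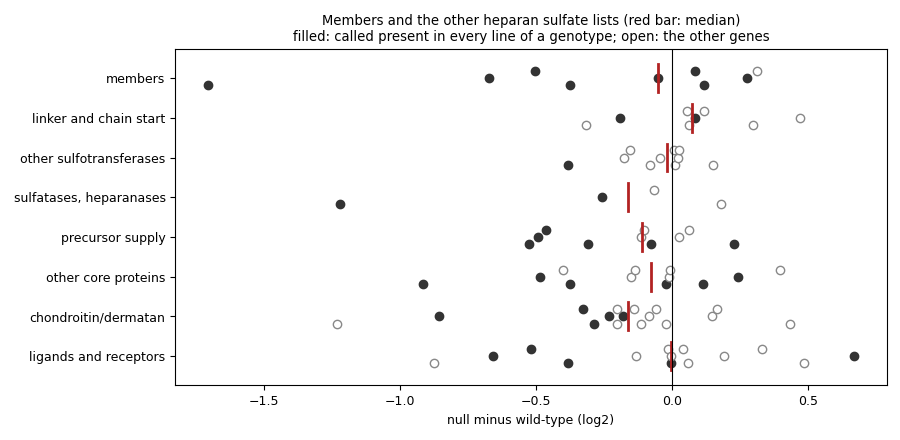
Null minus wild-type difference in log2 units (x axis) of each measured gene in the member list and in 7 further lists (y axis), with a red bar at the list median; filled points were called present in every line of a genotype, open points are the other genes. The list medians lie between -0.16 and 0.07. Hs6st2, chosen for being low in null lines, is the point farthest from 0 at -1.71. It is followed by Chst15, called present in no line, at -1.23 and Sulf1 at -1.22.

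Chondroitin and dermatan sulfate, which use the same linker and precursors, and the ligands and receptors that bind heparan sulfate were read for comparison. Of 16 chondroitin genes 0 passed the threshold between null and wild-type lines, where 1.13% of all genes did. On average 13 were lower and 3 higher in null lines (median -0.16), against 9672 lower and 8521 higher of all 18193 genes. Dse, the dermatan epimerase, differed by -0.86 (adjusted p = 0.107, limma), Chsy1 by -0.33 and Dsel by -0.29. Chst15, singled out after its values were seen, differed by -1.23 (adjusted p = 0.0525, limma) and was called present in 0 lines. Of 14 ligand and receptor genes 0 passed. Fgf4, the FGF that ESCs make themselves, differed by 0.67 (adjusted p = 0.193, limma), while its receptors Fgfr1 and Fgfr2 differed by -0.66 and -0.52. The null lines were all above the wild-type lines for Fgf4 and all below them for both receptors. Null and wild-type lines did not overlap for 5 of the 14 genes, against 22.4% of all and 33.6% of detected genes.

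The genes whose values over the 8 arrays were most like those of Hs6st2, among 8218 genes called present in at least 3 arrays, were Tsc22d4 (Pearson r = 0.97), Aldh9a1 (0.96), Hsd17b11 (0.96), Pou3f1 (0.96) and Gramd3 (0.95). The 8 arrays share the 3 genotypes, so any gene that is low in null lines ranks high by this measure, and no test was made. Zfp281 was at 0.84, number 172 in the order. Of the other members Hs2st1 was the closest, at 0.77 and number 399, followed by Gpc4 at 0.63 and Gpc3 at 0.43. Ext1, Sdc4, Hs6st1, Glce and Ext2 ran from 0.01 down to -0.53.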

How the data were processed

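The authors hybridized total RNA of 8 ESC lines to Affymetrix arrays, normalized them by RMA and deposited log2 values for 45101 probe sets. They also deposited, for each array, linear signal values with detection calls and detection p-values; RMA and limma are named in the submitters' processing notes, whose versions those sources leave out. Arrays give no read depth, so the number of lines limits precision. Probe sets were named from the platform annotation (34945 with 1 gene, 932 with several, 9160 with none), and each of 18193 genes was read from its brightest probe set by mean log2 value. All 8 arrays were fitted together with limma 3.58.1 (lmFit, eBayes) in R 4.3.3 and p-values were adjusted by Benjamini-Hochberg over all genes; a call is an adjusted p under 0.05. Named genes are the members, neighbours on X, the 5 genes most like Hs6st2, and up to 3 per list. Members and lists were chosen with earlier results of these data known. The fit was tested on simulated data with independent noise in each gene, which cannot show how far calls depend on single lines. The alternatives comprised the choice of probe set, filter, normalization, covariates, litter as a block and each line left out. Replicate numbers follow accession order and pair nothing. Litter mates did not deviate together (r = 0.09 for lines 7 and 3, -0.01 for lines 3.38 and 3.3).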

Additional observations from a re-analysis of the deposited data

Results flagged for a closer look

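Hs2st1 drew attention because every null line was below every wild-type line while both heterozygous lines were above every wild-type line. The null minus heterozygous difference was -0.58 (SE 0.12, adjusted p = 0.0871, limma), the null minus wild-type difference was -0.38, and the heterozygous minus wild-type difference was 0.21. Over all genes 171, or 0.94%, had lines arranged in this opposed way. The pattern rests on probe set 1450729_at. With the mean of all Hs2st1 probe sets the null minus heterozygous difference was 0.051. That mean includes 1440905_at, which was called present in 0 lines and differed by 0.71.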

How the results depend on the processing

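In limma, 206 genes passed an adjusted p of 0.05 between null and wild-type lines, 0 between heterozygous and wild-type lines (701 unadjusted) and 0 between null and heterozygous lines (2512 unadjusted). The first count was 129 with all probe sets fitted, 442 with genes called present, 0 with signal values, 0 with the 3′ to 5′ covariate, 0 in lines without Eif2s3y detection and 3 with Eif2s3y as a covariate; with lines left out it ranged from 2 to 208, namely 3 when null line 7, 2 when wild-type line 3 and 4 when wild-type line 3.2 was left out. The count for null against heterozygous lines was 20 with the mean of probe sets, 1 with all probe sets, 166 with genes called present, 36 with an intensity trend, 96 with both genotypes alone, 1 with the Eif2s3y covariate and 0 to 346 with lines left out (346 when wild-type line 3.2 and 121 when wild-type line 3.3 was left out). That for heterozygous against wild-type lines was 0 to 2 with lines left out. Genes past 2-fold numbered 450 for null against wild-type (248 with the mean of probe sets, 3401 with signal values), 441 for null against heterozygous (252, 3984; 363 to 759 with lines left out) and 61 for heterozygous against wild-type lines (32, 3233; 392 without Eif2s3y detection; 58 to 234 with lines left out). The Eif2s3y settings were chosen after seeing the data, and the lines without Eif2s3y detection hold only het line 5 and wild-type line 3.3 beside the 3 null lines, so that their counts and values rest on a single line in each of these genotypes. The members other than Hs6st2 gave 0 calls in every setting run. Of the other heparan sulfate genes 1 passed, Sulf1 (-1.24, adjusted p = 0.0441), with litter as a replicate block over 4 lines; that block gave 178 genes and Hs6st2 at -2.03. Hs6st2 kept its direction in all settings run, from -2.03 to -0.45 for null against wild-type lines and from -1.85 to -0.43 for null against heterozygous lines.

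Differences of uncalled members changed sign in some settings, among them null against heterozygous lines for Hs2st1 (-0.58) and Gpc4 (-0.43). For null against wild-type lines Ext1 (0.08) was -0.10 with the mean of probe sets, -0.20 with signal values and -0.16 with the replicate block, and Sdc4 (-0.05) was 0.068 with the 3′ to 5′ covariate, 0.41 with the replicate block, 0.18 without Eif2s3y detection and 0.25 with its covariate. With lines left out Hs6st1 ranged from -0.064 to 0.27, Ext1 from -0.23 to 0.37, Glce from -0.12 to 0.63 and Sdc4 from -0.39 to 0.29. For heterozygous against wild-type lines Hs2st1 was -0.082 and Ext2 0.10 with the mean of probe sets, and without Eif2s3y detection Ext1 was 0.029 and Gpc4 0.50; with lines left out Gpc3 ranged from -0.31 to 0.16 and Gpc4 from -0.85 to 0.37. For null against heterozygous lines Hs6st1 was 0.12 with signal values and Hs2st1 0.051 with the mean of probe sets; with lines left out Ext1 ranged from -0.12 to 0.48, Glce from -0.40 to 0.34, Gpc4 from -1.04 to 0.17 and Sdc4 from -0.11 to 0.57. The causes were not tested, and the brightness of dim probe sets such as those of Ext2 limits what can be read from them.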
